A study of Mus musculus with 4 samples.

Results

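Retinoic acid is made, cleared and read by separate sets of genes, and 9 of them were followed here through the descendants of Mesp1-expressing mesoderm of the mouse embryo. They are the synthesis gene Aldh1a2, the breakdown genes Cyp26a1, Cyp26b1 and Cyp26c1, the receptor genes Rara, Rarb and Rarg, and the binding protein genes Crabp1 and Crabp2. They were picked by symbol, each matched a single row, and they are 9 of the 27998 genes in the gene tables. All 9 were detected in all 4 libraries, the scarcest being Cyp26b1, with 52 to 306 unique molecular identifiers (UMIs, each counted once per captured RNA molecule) per library, and Cyp26c1, with 34 to 438.

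Retinoic acid is a small diffusible derivative of vitamin A. ALDH1A2 carries out the last step of its synthesis in most of the early embryo, the CYP26 enzymes oxidise it to forms that are cleared, and a gradient between places of synthesis and places of breakdown sets position along the body axis. Inside cells it binds CRABP proteins in the cytoplasm and the nuclear receptors RARA, RARB and RARG, which act on DNA with an RXR partner. In the forming heart it is known for limiting the second heart field at its posterior end and for patterning the inflow tract and atria.

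Single cell RNA-seq had been run on 4 libraries, a single one for embryonic day (E) 8.0, one for E8.25, and one each for E9.5 and for E10.5. All embryos were Swiss Webster and carried Mesp1Cre;Rosa26-GFPflox/+, so that Cre made under the Mesp1 gene switches on GFP for good in a cell and in its progeny, and GFP positive, DAPI negative cells were sorted from pooled embryos. The upper body was dissected for the E8.0 and E8.25 libraries (the early libraries), and only the heart together with the pharyngeal apparatus for the E9.5 and E10.5 libraries (the late ones). Stage and dissected region therefore cannot be told apart, and with 1 library per stage a difference between stages has no replicate check. The 4 libraries kept 7118, 2884, 3921 and 7525 cells in order of stage, with a median of 15205 to 35216 UMIs per cell, the E8.25 library being the deepest and the smallest. Pairs of libraries shared 16 to 88 cell barcodes. Levels are given as CPM, the UMIs of a gene divided by all UMIs of the same cells and scaled to 1e6. Each UMI is a tag at the 3′ end of 1 molecule, so CPM does not grow with gene length, although capture can differ between genes.

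Cells were sorted in silico by markers, because no annotation of single cells was used. A cell entered a gate when it raised at least 3 of the 5 or 6 markers of 1 list and a larger share of that list than of any other, and a gate's name says only whose markers were raised. The lists left 15266 of 21448 cells (71.2%) in 16 gates, 1603 tied and 4579 in none, and 45 pairs of gate and library held at least 20 cells. None of the 9 genes is a marker. The gates used most were the posterior second heart field (pSHF, from Tbx5, Foxf1, Osr1, Wnt2, Isl1 and Gata4), the anterior second heart field (aSHF), cardiomyocytes (CMs), branchiomeric muscle (BrM), endothelial cells, paraxial mesoderm and head mesoderm. The pSHF gate held 228, 62, 631 and 960 cells in order of stage. Of its cells, between 34.4% and 55.3% sat at the threshold of 3 markers. The summed markers of a list were highest in its own gate, except that the aSHF list at E8.0 and the pSHF list at E8.25 were higher in the CM gate. A gate whose markers are Hand1, Bmp4, Msx1, Msx2 and Mab21l2 is called the Hand1/Msx gate below, and a gate of 1229 cells at E8.0 whose markers include Tbx4, Pitx1 and Phlda2 the Phlda2/Tbx4 gate.

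Receptors of this family are known to bind a pair of similar 6-base half-sites in direct repeat, and a spacer of 5 bases is the classic form. Promoter windows of 300 bases (250 before to 50 after an annotated start site, RefSeq, GRCm38.p6) were searched on both strands for the half-sites AGGTCA or AGTTCA, or GGGTCA or else GGTTCA, followed after 5 bases by another of these 4. Of the 8 members with a window, Rarb and Cyp26a1 held such a pair, against 31 of 27025 genes (0.115%) and 32 of 32851 windows (0.0974%). The pairs are shown because a receptor gene and a breakdown gene carry them, with the half-sites in capitals and 6 bases on either side.
Rarb: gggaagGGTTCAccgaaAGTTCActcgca
Cyp26a1: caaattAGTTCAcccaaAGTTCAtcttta
The Rarb window is chr14:16575507-16575535 on the minus strand, the strand of the gene, and its pair runs from 53 to 37 bases before one of the annotated start sites. The Cyp26a1 window is chr19:37697770-37697798 on the minus strand, opposite to the gene, and its pair runs from 32 to 16 bases before one of the annotated start sites. Both lie within the annotated extent of the gene, which is chr14:16430839-17082331 for Rarb and chr19:37697738-37701536 for Cyp26a1. Cyp26c1, at chr19:37685112-37693320, is its neighbour on that chromosome. A match of letters describes these windows only and is not a measurement of binding.

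Over all retained cells, the synthesis gene and the main breakdown gene were both highest in the E8.0 library. In order of stage Aldh1a2 was at 70.3, 47.2, 41.5 and 27.9 CPM, a log2 difference of -1.33 between E10.5 and E8.0 (95% counting interval -1.39 to -1.28, which covers counting error only, as do all intervals here). Cyp26a1 was at 42.4, 23.7, 9.66 and 14.7 CPM in the same order, a log2 difference of -1.53 (-1.60 to -1.45). The 4 libraries thus stood in the order of age for Aldh1a2, whereas Cyp26a1 was lowest at E9.5. In such sums over a whole library, fewer cells of a type and less RNA per cell cannot be told apart. The other breakdown genes were scarcer and ran in opposite directions. Cyp26b1 was at 0.468 and 0.490 CPM in the early pair of libraries and at 2.49 and 2.39 in the late pair. Cyp26c1 was at 2.24 and 4.13 CPM early and at 0.510 and 0.266 late.

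**Figure D1:**
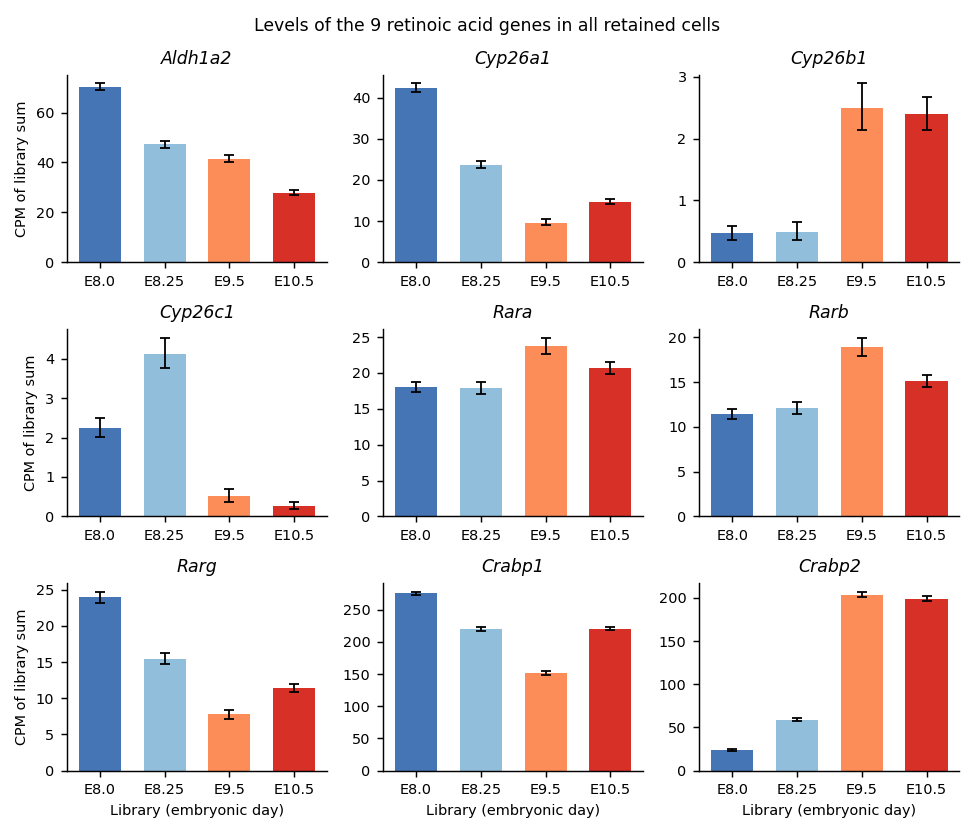
Level of each of the 9 genes in the 4 libraries, as CPM of all retained cells on a linear axis that starts at 0, with bars for the level and whiskers for the 95% exact Poisson interval of the count. Crabp2 stands at 204 and 199 CPM in the late libraries against 23.6 and 59.0 in the early ones, while Rara stays between 17.8 and 23.8 CPM.

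Among receptors, Rara and Rarb varied little and Rarg was highest early. Rara, which most cell types express, was at 18.0, 17.8, 23.8 and 20.7 CPM in order of stage. Rarb, a receptor gene that is itself a known target of retinoic acid, was at 11.5, 12.1, 18.9 and 15.1 CPM. Rarg was at 23.9, 15.5, 7.76 and 11.4 CPM. Of the binding protein genes, Crabp2 lay above Crabp1 at E9.5 alone. Crabp1 was at 275, 220.2, 152 and 220.4 CPM. Crabp2, whose product is known to carry retinoic acid to the receptors in the nucleus, was at 23.6, 59.0, 204 and 199 CPM, a log2 difference of 3.07 (3.02 to 3.13).

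A gene was called different by stage when both late libraries lay at least 2-fold above, or below, both early ones, among 17035 genes with at least 20 UMIs. Cyp26b1 and Crabp2 were called higher late, 2 of 9 members against 8.75% of all genes, and Cyp26c1 was called lower late, 1 of 9 against 2.85%. The median log2 difference between E10.5 and E8.0 was -0.32 over the 9 members and 0.0047 over all genes. A list of 24 other genes of the pathway covered uptake and supply of vitamin A, the RXR partners, corepressors and genes known to respond to retinoic acid. Of these, 7 were called higher late and 2 lower, with a median of 0.60. Those higher were Lrat, Adh1, Aldh1a1, Rxrg, Hoxa3, Hoxb4 and Nr2f1, and those lower included Rbp4, which carries vitamin A in the blood, at 9.08, 11.5, 3.27 and 3.45 CPM.

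The gates that held most of the Aldh1a2 were not the same in the early and the late libraries. The paraxial mesoderm gate is named for markers of somite precursors. Aldh1a2 was at 288 CPM in that gate at E8.0 and 128 at E8.25, but at 6.01 at E9.5 and 1.79 at E10.5. In the pSHF gate it was at 189, 157, 143 and 72.4 CPM in order of stage. The paraxial gate therefore held 52.4% of all Aldh1a2 UMIs at E8.0 in 13.3% of the cells, and 38.9% at E8.25. The pSHF gate held 8.59% and 7.79% of Aldh1a2 UMIs in the early libraries, and 56.1% at E9.5 in 16.1% of the cells and 30.4% at E10.5 in 12.8%. The late paraxial gate rests on 30 and 103 cells against 948 and 432 early ones, and the dissected region changed at the same step.

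A further gate with Aldh1a2 could be measured in the late libraries only, since it held under 20 cells in the early ones. The epicardial gate, which held 191 cells at E10.5 and 31 at E9.5, stood at 114 CPM of Aldh1a2 at E10.5 (104 to 124) and 49.2 at E9.5 (33.7 to 69.5). It was the highest gate at E10.5, above the pSHF gate at 72.4 CPM (68.2 to 76.8) with counting intervals apart, and held 14.1% of Aldh1a2 UMIs in 2.54% of the cells. Below these the order of gates was not resolved at E10.5. The aSHF gate at 28.3 CPM, head mesoderm at 21.9, cranial mesenchyme at 21.1 and BrM at 17.0 had intervals that overlapped from each to the next. Blood was lowest at E8.0 (3.97 CPM) and E10.5 (1.46). Endothelial cells were at 13.5 and 8.59 CPM early, then 0.296 and 2.07 late, the lowest gate at E9.5, and the CM gate lay between 7.12 and 39.2 CPM.

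Free RNA in the droplets can give UMIs to cells that do not express a gene, so shares of positive cells were read against the blood gate. Each cell was thinned to 5000 UMIs and counted as positive from 1 UMI. Aldh1a2 was then detected in 57.5%, 43.5%, 45.4% and 28.0% of pSHF cells in order of stage, and in 49.4% and 36.1% of early paraxial cells. The blood cells of E8.0, E8.25 and E10.5 gave shares of 1.14%, 4.01% and 0.873%, and E9.5 had too few blood cells for one. No paraxial cell was positive in the late libraries, 0 of 30 and 0 of 103. The pSHF shares are well above those of blood in each library with a blood share. Free RNA itself was not measured.

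**Figure D2:**
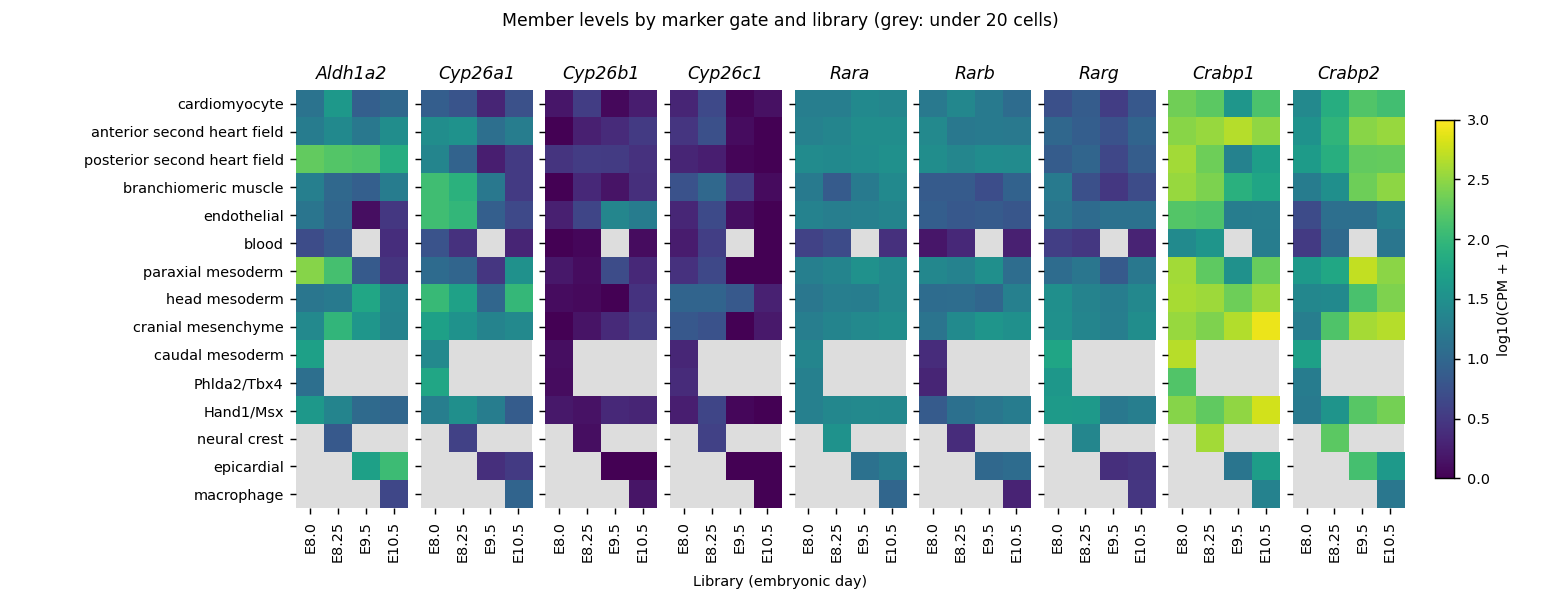
Heat map of the 9 genes, 1 panel per gene, with gates in rows and the 4 libraries in columns, coloured by log10(CPM + 1) on a common scale and grey where a gate held under 20 cells. Aldh1a2 is bright in the posterior second heart field at all stages (72.4 to 189 CPM) and in the paraxial mesoderm only early (288 and 128 CPM against 6.01 and 1.79).

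Cyp26a1 marked a different set of gates. At E8.0 it was at 120.1 CPM in BrM (94.6 to 150.4), 118 in endothelial cells (111 to 127) and 103 in head mesoderm (95.8 to 110.1). The BrM interval overlapped those of endothelial cells and of head mesoderm, which were apart from each other. BrM held only 35 cells at E8.0 and 51 at E8.25. At E8.25 the same 3 gates led with 97.2 CPM in endothelial cells, 82.4 in BrM and 51.6 in head mesoderm. The gates then parted. Head mesoderm stood at 8.76 CPM at E9.5, from 3 UMIs in only 22 cells, and at 99.6 at E10.5. Endothelial cells were at 7.09 and 3.55 CPM in the late libraries, and BrM at 14.9 and 2.22. At E10.5 the head mesoderm gate held 24.4% of Cyp26a1 UMIs in 4.41% of the cells. The Phlda2/Tbx4 gate, at 59.1 CPM, held 26.9% of Cyp26a1 UMIs at E8.0.

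The pSHF gate was low in this breakdown gene, with 21.9, 8.07, 0.781 and 2.27 CPM of Cyp26a1 in order of stage. The early paraxial gate was low too, at 10.2 and 8.45 CPM. Blood, given for comparison, was at 4.84, 1.67 and 1.03 CPM at E8.0, E8.25 and E10.5. Thinned to the same depth, Cyp26a1 was detected in 35.1% and 26.1% of early endothelial cells, 31.4% and 18.2% of early head mesoderm cells and 5.14% and 0.617% of early blood cells.

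Cyp26a1 was also held by few cells. The top 1% of cells by Cyp26a1 count carried 17.1%, 16.1%, 29.6% and 49.4% of its UMIs in order of stage, against 17.3%, 13.2%, 14.4% and 18.3% for Aldh1a2. Cells with at least 10 Cyp26a1 UMIs numbered 84, 33, 3 and 51 in order of stage. Of the 51 at E10.5, 16 were in the head mesoderm gate, 12 in cranial mesenchyme and 13 in no gate, and together the 51 carried 38.3% of the Cyp26a1 UMIs of that library. Of the 84 at E8.0, 38 were in the Phlda2/Tbx4 gate and 18 were endothelial. These are shares of raw UMIs, which also follow the depth of a cell.

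Cyp26b1 was highest in endothelial cells in the late libraries. In the endothelial gate it was at 0.836 and 3.19 CPM early, and at 22.8 and 17.3 late, where the next gate, the paraxial one at E9.5, was at 4.0. The endothelial gate held 43.8% of Cyp26b1 UMIs at E9.5 in 5.05% of the cells and 38.2% at E10.5 in 4.97%. Cyp26a1 and Cyp26b1 thus went opposite ways in endothelial cells between the early and the late libraries. Cyp26c1 was highest in head mesoderm (8.16 CPM) at E8.0 and in BrM (9.30 CPM) at E8.25. With 36 and 34 UMIs in the whole of the late libraries, Cyp26c1 was near the limit of detection there, and 58.3% of those at E9.5 were in BrM. Blood held 2.65 CPM of Cyp26c1 at E8.25, so levels near that value in that library do not stand out from blood.

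Rara was lowest in blood, between 1.60 and 3.80 CPM. It was at 26.7, 25.4, 28.0 and 31.3 CPM in the pSHF gate, 18.0 to 25.2 in CMs and 18.4 to 21.6 in endothelial cells. Low values outside blood were 6.20 CPM in BrM at E8.25 (2.97 to 11.4), 8.76 in the macrophage gate at E10.5 and 12.3 in the epicardial gate at E9.5, and the neural crest gate reached 33.0. In the pSHF gate Rarb was at 28.5, 23.0, 28.1 and 27.1 CPM, a narrow range over the 4 libraries, and in cranial mesenchyme at 13.3, 26.5, 35.5 and 31.5. Rarb was low in endothelial cells (5.32 to 6.83 CPM) and BrM (4.18 to 7.71), and at 1.38 and 1.06 in the caudal mesoderm and Phlda2/Tbx4 gates of E8.0. In rank, the pSHF gate led for Rarb at E8.0 with an interval that overlapped that of the aSHF gate, and cranial mesenchyme led in the other 3 libraries with an interval that overlapped the next gate each time.

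Rarg was highest in the caudal mesoderm gate of E8.0 at 57.2 CPM, then in the Hand1/Msx gate at 42.4 and the Phlda2/Tbx4 gate at 38.2. The Hand1/Msx gate was at 39.9, 14.8 and 18.3 CPM of Rarg in the later libraries. Head mesoderm (17.5 to 30.0 CPM) and cranial mesenchyme (18.2 to 31.3) kept Rarg at all stages, whereas the pSHF gate had 3.39 to 8.48 and the CM gate 2.49 to 6.47. The caudal and Phlda2/Tbx4 gates of E8.0, both high in Rarg, were thus among those with the least Rarb. The Hand1/Msx gate, which lay between them in Rarg, was at 6.27, 11.7, 14.0 and 17.3 CPM of Rarb in order of stage. Cranial mesenchyme, by contrast, led for both Rarb and Rarg at E9.5 and E10.5, and over the 41 sums of gate and library with at least 50 cells Pearson's r of log2(CPM + 1) between Rarb and Rarg was 0.16, a description over points that share libraries.

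Crabp1 and Crabp2 changed rank with stage. Crabp1 lay above Crabp2 in 12 of 12 gates at E8.0 and 11 of 11 at E8.25, but in 5 of 10 at E9.5 and 7 of 12 at E10.5. In the pSHF gate, Crabp1 was at 382, 214, 20.3 and 46.8 CPM and Crabp2 at 42.8, 74.7, 191 and 195. Crabp1 fell likewise in endothelial cells (155, 143, 17.4 and 18.0 CPM) but not in the aSHF gate (289, 344, 466 and 314) or in cranial mesenchyme (341, 262, 446 and 825.2). Among the 9 gates with all 4 libraries, both late levels of Crabp2 lay above both early ones in each but the endothelial. It was at 17.4, 30.4, 215 and 312 CPM in BrM and at 18.0, 149, 392 and 466 in cranial mesenchyme, while endothelial cells had at most 18.6. Blood had 17.6 to 36.2 CPM of Crabp1 and 2.25 to 14.1 of Crabp2. Late endothelial levels of both, and the pSHF level of Crabp1 at E9.5, are close to those of blood. E9.5 had too few blood cells for a level, so its values are set against blood of the other libraries.

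The same rule of stage was applied inside the 9 gates with at least 20 cells in all 4 libraries, still with 1 library per stage. In the pSHF gate, 1 of 8 members was called higher late (Crabp2, background 6.29%) and 2 lower (Cyp26a1 and Crabp1, background 1.68%). In the endothelial gate, 1 of 9 was called higher (Cyp26b1, background 5.53%) and 4 lower (Aldh1a2, Cyp26a1, Cyp26c1 and Crabp1, background 2.14%). In the paraxial gate, 1 of 8 was higher (Crabp2, background 4.25%) and 2 lower (Aldh1a2 and Cyp26c1, background 5.07%). In the CM gate none of 8 was higher (background 6.44%) and Cyp26c1 was lower (1.2%). In the aSHF gate, with 8 tested, Crabp2 was higher (5.13%) and Cyp26c1 lower (1.83%). In BrM, with 8 tested, Crabp2 was higher (7.33%), and Cyp26a1 and Crabp1 were lower (1.74%). In head mesoderm Crabp2 was higher (5.58%) and none of 8 was lower (2.46%). In cranial mesenchyme, with 9 tested, Cyp26b1 and Crabp2 were higher (5.21%) and Cyp26c1 was lower (1.63%). In the Hand1/Msx gate, with 9 tested, Crabp2 was higher (4.68%), and Aldh1a2, Cyp26c1 and Rarg were lower (3.09%). Crabp2 was thus called higher late in 7 of the 9 gates. The calls of Cyp26c1 rest on few UMIs, with levels of at most 5.68 CPM in the gates where it was called. Among the other pathway genes of the pSHF gate, Rdh10, which makes the substrate of ALDH1A2, was lower late at 24.6 and 25.8 CPM against 59.3 and 65.4.

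Synthesis was next set against breakdown gate by gate. Aldh1a2 lay above Cyp26a1 in 25 of the 45 pairs of gate and library, which were 5 of 12, 6 of 11, 7 of 10 and 7 of 12 in order of stage. Cyp26a1 was the highest of the 3 breakdown genes in 39 of the 45. Over the same 41 sums, Pearson's r between Aldh1a2 and Cyp26a1 was 0.039.

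**Figure D3:**
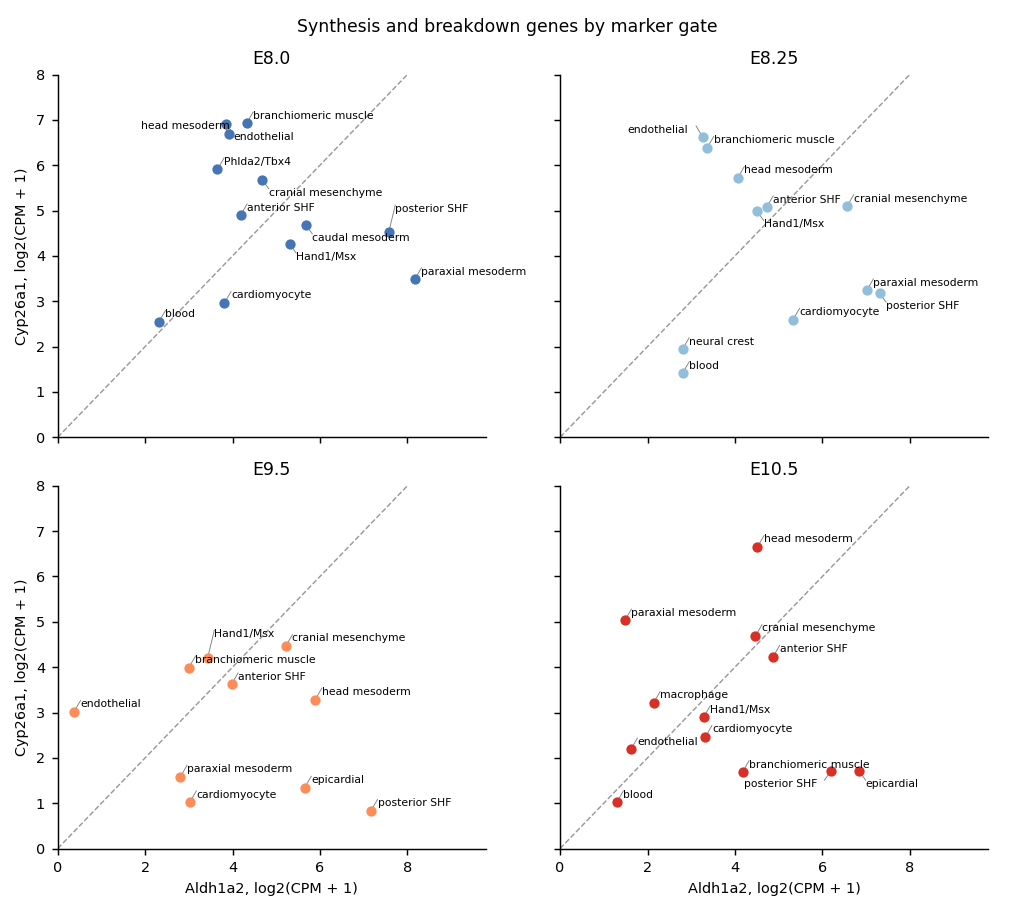
Aldh1a2 (horizontal) against Cyp26a1 (vertical) as log2(CPM + 1) in each gate with at least 20 cells, 1 panel per library, with a dashed line where both are equal. The posterior second heart field lies below the line in all 4 panels, and head mesoderm lies above it at E8.0, E8.25 and E10.5.

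Synthesis and breakdown genes were then read in the same cells, thinned to 5000 UMIs and scored for Aldh1a2 and for any of the 3 Cyp26 genes. Cells with Aldh1a2 alone made up 16.2%, 13.9%, 13.1% and 10.4% in order of stage, and cells with a Cyp26 gene alone 14.3%, 10.51%, 4.85% and 4.96%. Cells with both numbered 111, 39, 13 and 23, which is 1.56%, 1.35%, 0.334% and 0.306% of the cells. The overall frequencies of the 2 classes, multiplied, would give 200.3, 52.1, 27.1 and 42.6 such cells. The log2 odds ratio was -1.13, -0.54, -1.22 and -1.01, below 0 in all 4 libraries (intervals -1.44 to -0.83, -1.08 to -0.02, -2.17 to -0.40 and -1.69 to -0.39). Cells of 1 library are not replicates, so no test was made, and these values describe the libraries.

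Within single gates the difference from these frequencies varied. In the pSHF gate, cells with both numbered 11, 3, 3 and 7, against 13.8, 3.05, 4.09 and 5.32 from the frequencies within the gate. In the early paraxial gate they numbered 13 and 8, against 22.2 and 9.03. The log2 odds ratio at E8.0 was -0.75 in the pSHF gate (-2.13 to 0.60) and -1.32 in the paraxial gate (-2.39 to -0.33). It was -1.59 (-6.99 to 1.11) in the aSHF gate of E8.0, from 1 cell against 2.67. In the caudal mesoderm gate of E8.0 it was -2.29 (-7.71 to 0.48), from 1 against 3.75. The endothelial gate of E8.0 held 11 against 9.48, a log2 odds ratio of 0.37 (-0.93 to 1.63). The CM gate of E8.0 held 6 against 1.07, a log2 odds ratio of 3.33 (1.47 to 5.05). No blood cell had both, of 175, 324 and 1031 at E8.0, E8.25 and E10.5. The frequencies within that gate give only 0.103, 0.361 and 0.0436 such cells, too few for their absence to be informative. Over whole libraries with doublets kept, cells with both numbered 125, 44, 17 and 24, and the log2 odds ratio was -1.10, -0.63, -0.85 and -0.92.

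**Figure D4:**
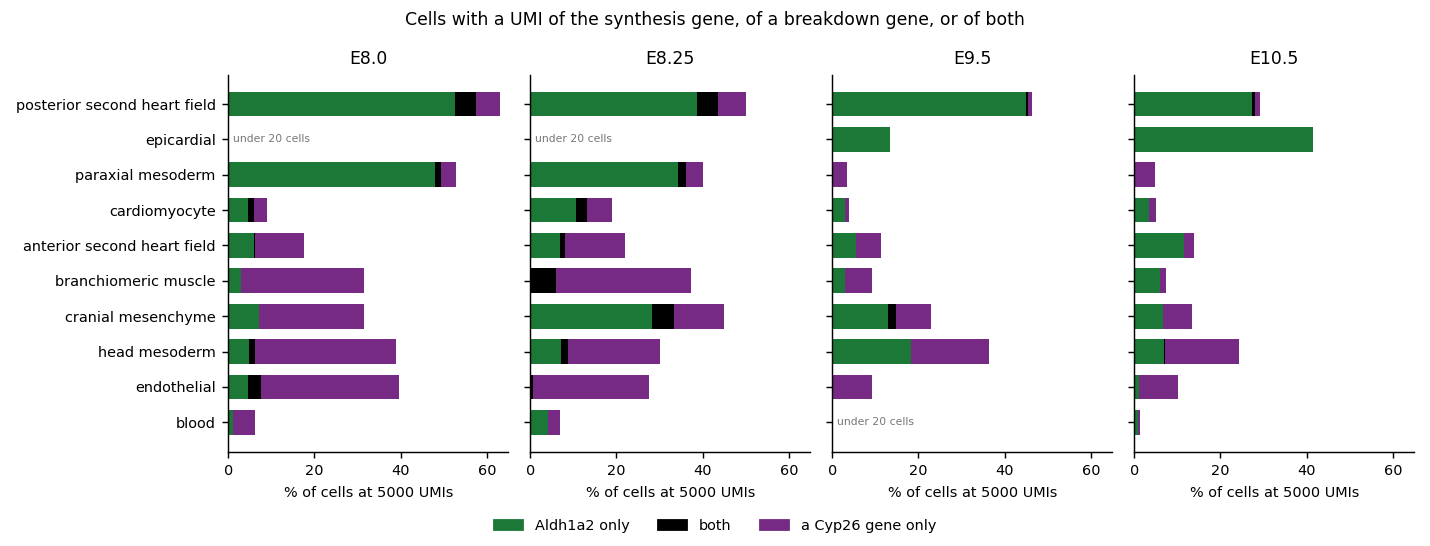
Percent of the cells of 10 gates in each library with Aldh1a2 alone (green), with Aldh1a2 and any Cyp26 gene (black) and with a Cyp26 gene alone (purple), stacked from 0, after thinning each cell to 5000 UMIs. The posterior second heart field is mostly green in all 4 panels, with 11, 3, 3 and 7 cells in black, and head mesoderm is mostly purple at E8.0, E8.25 and E10.5.

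Other pairs of members in the same cells gave a steady pattern for Rarb and a changing one for Crabp1. Aldh1a2 and Rarb were found together more often than the frequencies give in all 4 libraries, with log2 odds ratios of 1.23, 1.26, 1.25 and 1.09. Aldh1a2 and Rarg gave -1.11 at E8.0 and -0.15, -0.64 and 0.15 afterwards. Crabp1 with Aldh1a2 gave 1.66 and 0.39 early, but -1.08 and -1.06 late. Crabp1 with Cyp26a1 went the other way, at 0.10 and -0.27 early, and 1.87 and 2.66 late. Cells that had Crabp1 thus tended to share it with the synthesis gene at E8.0 and with the breakdown gene at E9.5 and E10.5. Crabp1 and Crabp2 were found together more often than their frequencies give in each library, at 1.06, 1.07, 0.85 and 1.91.

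To ask which members differ between gates beyond the spread over the 4 libraries, UMIs were summed per gate and library and tested by the quasi-likelihood method of edgeR, with the library as a block, over all genes that passed a filter on low counts and with Benjamini-Hochberg adjustment. The 4 libraries are 4 stages, so the spread includes stage. Cyp26c1 did not pass that filter in the 4 comparisons of the pSHF gate, and Cyp26b1 did not in that of head mesoderm. The 4 pSHF comparisons share the pSHF sums.

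Against the aSHF gate, the other progenitor pool of the heart tube, the pSHF gate was higher in Aldh1a2. The pSHF sums were at 189, 157, 143 and 72.4 CPM in order of stage and the aSHF sums at 17.2, 25.5, 14.7 and 28.3, ranges that do not overlap. The means were 140.4 ± 49.4 and 21.4 ± 6.50 CPM (SD, n = 4), higher in pSHF in 4 of 4 libraries, with a log2 difference of 2.75 ± 0.28 (SE) and a Benjamini-Hochberg adjusted p of 0.00181 (edgeR). Aldh1a2 was the only member called higher, 1 of 8 tested against 1.84% of 10795 genes, and it held in all 11 alternatives (adjusted p up to 0.0210). No member was called lower (background 4.21%), while 3 were at an unadjusted p under 0.05 and 1 was called by DESeq2. Cyp26a1 was lower in pSHF in 4 of 4 libraries, at 21.9, 8.07, 0.781 and 2.27 against 28.8, 32.7, 11.3 and 17.8 CPM, with a log2 difference of -1.94 ± 0.48 and an adjusted p of 0.0568 (edgeR), which misses the threshold of 0.05. Rarb was higher in 4 of 4 libraries with a log2 difference of 0.54 ± 0.14 and an adjusted p of 0.0626 (edgeR). The E8.0 library bears on both, since without it Cyp26a1 (adjusted p 0.00478), Rarb (0.0289) and Crabp2 (0.0132) also passed in edgeR, which made 4 members. Over all alternatives the adjusted p ran from 1.38e-07 to 0.874 for Cyp26a1, 0.00517 to 0.568 for Rarb and 0.00778 to 0.999 for Crabp2. Of 19 other pathway genes tested, 4 were higher in pSHF (Dhrs3, Hoxb1, Hoxa3 and Nr2f2) and Rxrg was lower. Cardiomyocyte markers summed to 149.7 to 289 CPM in the pSHF sums and 184 to 390 in the aSHF sums, and their part in the result was not tested.

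Against the CM gate, 4 of 8 members were higher in pSHF (background 18.9% of 11234 genes) and none was lower (background 18.5%), with 0 lower at an unadjusted p under 0.05 in edgeR and 0 by DESeq2. Aldh1a2 had a log2 difference of 3.30 ± 0.35 and an adjusted p of 0.000727 (edgeR), from 140.4 ± 49.4 against 17.1 ± 14.9 CPM (SD, n = 4). The differences of the others called were small. They were 0.37 ± 0.11 for Rara, 0.77 ± 0.20 for Rarb and 0.44 ± 0.12 for Crabp2 on the log2 scale, with adjusted p of 0.0386, 0.0208 and 0.0260 in edgeR. They were higher in 4, 3 and 4 of the 4 libraries. Without the E8.0, the E9.5 or the E10.5 library, 1 member passed, which was Aldh1a2 each time. Without E8.25, Rara lost its call and Cyp26b1 gained one (adjusted p 0.104 and 0.0381 in edgeR, within 0.0364 to 0.141 and 0.0175 to 0.230 over the alternatives). Of 20 other pathway genes, 13 were higher in pSHF, among them Rdh10 (log2 difference 2.03) and the vitamin A receptor gene Stra6 (2.10), and Rxrg and Tgm2 were lower.

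Against the BrM gate, Aldh1a2 and the receptor gene Rarb were higher in pSHF, 2 of 8 members (background 1.97% of 11091 genes). The BrM gate held 35, 51, 437 and 547 cells in order of stage. Rarb was at 28.5, 23.0, 28.1 and 27.1 CPM in the pSHF sums and at 6.32, 6.20, 4.18 and 7.71 in the BrM sums, ranges far apart, with a log2 difference of 2.13 ± 0.21 and an adjusted p of 0.00336 (edgeR). Aldh1a2 had 3.27 ± 0.38 and an adjusted p of 0.00521 (edgeR), against 13.1 ± 5.82 CPM in BrM (SD, n = 4). Both held in all 10 alternatives that could be run (adjusted p up to 0.0333). No member was called lower (background 2.21%), while 1 was at an unadjusted p under 0.05 and 1 was called by DESeq2, in each case Cyp26a1. Its log2 difference was -2.55 ± 0.55 with an adjusted p of 0.0505 (edgeR), lower in 3 of 4 libraries, and the adjusted p ran from 0.000831 to 0.704 over the alternatives. Of 20 other pathway genes, 8 were higher in pSHF, among them Hoxa3 (3.07), Hoxb1 (2.87) and Meis1 (1.97), and Rxrg was lower.

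Against the endothelial gate, 5 of 8 members were higher in pSHF and 3 lower, in a comparison where 20.6% and 22.4% of 10930 genes were called. The 5 were Aldh1a2 (log2 difference 4.53 ± 0.44), Crabp2 (3.31 ± 0.20), Rarb (2.06 ± 0.13), Crabp1 (0.83 ± 0.19) and Rara (0.38 ± 0.10). The 3 lower were Cyp26a1 (-2.55 ± 0.41), Cyp26b1 (-2.37 ± 0.74) and Rarg (-1.13 ± 0.25). By edgeR the adjusted p was 0.00335 for Cyp26a1, 0.0399 for Cyp26b1 and 0.0123 for Rarg. All of the tested receptor and binding protein genes thus differed, with Rarg alone among them higher in endothelial cells. Cyp26b1 lost its call without the E8.25, the E9.5 or the E10.5 library (adjusted p 0.0523, 0.242 and 0.167 in edgeR, within 0.00559 to 0.242 over all alternatives). Crabp1 lost it without E8.0 (adjusted p 0.0504 in edgeR, within 0.00150 to 0.564). Rara was called in 3 of 11 alternatives, and lost the call without E8.25, E9.5 or E10.5 (adjusted p 0.0577, 0.110 and 0.112 in edgeR, within 0.0104 to 0.166). Of 19 other pathway genes, 12 were higher in pSHF and Tgm2, which endothelial cells express strongly, was lower (-4.85).

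**Figure D5:**
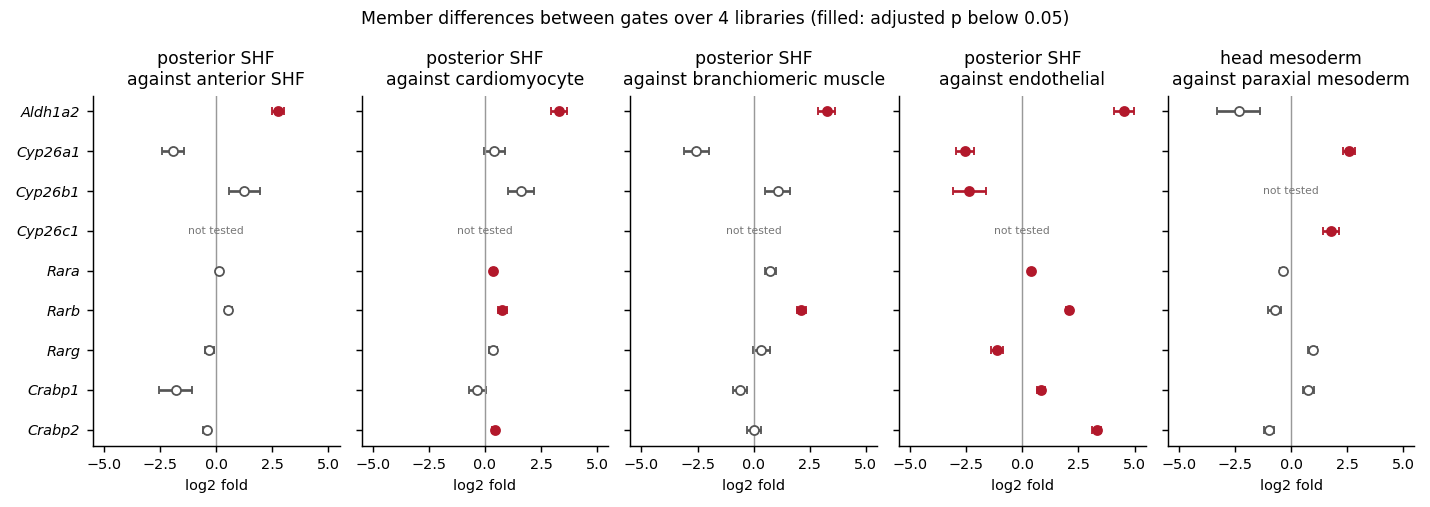
Log2 difference of each tested member in 5 comparisons of gates, with whiskers of 1 SE from edgeR, filled symbols where the adjusted p is below 0.05, open symbols otherwise and no symbol for a gene that did not pass the filter on low counts. Aldh1a2 is filled in the 4 comparisons of the posterior second heart field (2.75 to 4.53) and open in that of head mesoderm with paraxial mesoderm (-2.34).

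The head mesoderm gate was set against the paraxial mesoderm gate, both named by their markers alone. Whether the late gates hold the same cell types as the early ones was not tested. Cyp26a1 was higher in head mesoderm in 4 of 4 libraries, at 103, 51.6, 8.76 and 99.6 against 10.2, 8.45, 2.0 and 31.7 CPM, with a log2 difference of 2.58 ± 0.26 and an adjusted p of 0.00298 (edgeR). At E9.5 few UMIs were counted and the intervals overlapped (1.81 to 25.6 against 0.0507 to 11.2 CPM). Cyp26c1 was higher too, at 8.16, 8.23, 5.84 and 0.866 against 1.65, 3.50, 0 and 0 CPM. Its late head mesoderm levels rest on few UMIs (counting intervals 0.707 to 21.1 and 0.236 to 2.22 CPM). The log2 difference of Cyp26c1 was 1.78 ± 0.35 with an adjusted p of 0.0387 (edgeR), which became 0.528 without E8.0 and 0.0855 without E9.5. Without E8.25 Cyp26c1 did not pass the filter (adjusted p 5.52e-06 to 1.00 over the alternatives). Cyp26a1 and Cyp26c1 were thus 2 of 8 members called higher, against 1.37% of 10547 genes. None was called lower (background 0.465%), with 4 lower at an unadjusted p under 0.05 and 1 called by DESeq2. Aldh1a2 gave -2.34 ± 0.96 and an adjusted p of 0.315 (edgeR), since it was lower in head mesoderm in the early pair of libraries (14.0 and 15.7 against 288 and 128 CPM) and higher in the late pair (58.4 and 21.9 against 6.01 and 1.79). Without the E10.5 library, 6 members passed, and Aldh1a2 was among them at -3.62 (adjusted p 0.000105 in edgeR, from 8.25e-49 to 1.00 over the alternatives). Rarg was higher in head mesoderm in 4 of 4 libraries (0.97 ± 0.20) with an adjusted p of 0.0536 (edgeR). Of 18 other pathway genes, Nr2f2 was higher and Hoxb1 lower.

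Whether these differences changed between the early and the late libraries was tested by a term for stage in the same model, with a pair of libraries on each side. Members passed in each of the 5 comparisons. They were 1 of 8 for pSHF against aSHF (Crabp1, background 1.59%), 1 of 8 against CMs (Crabp1, 1.36%), 1 of 8 against BrM (Crabp2, 0.938%), 1 of 8 against endothelial cells (Cyp26b1, 4.23%) and 2 of 8 for head against paraxial mesoderm (Aldh1a2 and Cyp26a1, 2.91%). The change was largest for Aldh1a2, whose log2 difference between head and paraxial mesoderm was -4.36 and -3.03 in the early libraries and 3.28 and 3.61 in the late ones. The late paraxial levels in these ratios rest on few UMIs, at 6.01 CPM (1.24 to 17.6) and 1.79 CPM (0.370 to 5.24). For Crabp1 the difference between pSHF and aSHF was 0.40 and -0.68 early, and -4.52 and -2.75 late.

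Last, each member was compared with all genes that are no gate marker and had at least 20 UMIs, 16391 in number, by Pearson's r of log2(CPM + 1) over the same 41 sums, a description with no test. Rarb was most like Dach1 (r = 0.88) and Meis1 (0.87), a gene of the pathway list. Crabp2 was most like Mapk8ip1 (0.92) and Rara like Pdcl (0.92). Cyp26b1 followed Rbp2 (0.83), Madcam1 (0.82) and Clec4g (0.81), and Cyp26c1 followed Adm2 and Ndufa4l2 (both 0.86). Aldh1a2 was most like Dpysl5 (0.79) and Arg1 (0.78). Rarg was most like Axin2 and Nkd1 (both 0.75), which are known targets of Wnt signalling, and Crabp1 like Irx3 (0.77). Cyp26a1 had the weakest likeness of the 9, with Dusp7 at 0.71. Among the members themselves, Aldh1a2 and Rarb stood at 0.60 and Rara and Rarb at 0.64.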

How the data were processed

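The 4 libraries were 10x Chromium 3′ (v2 kit), and the authors deposited raw UMI counts per gene and cell, made per the labels with Cell Ranger 3.1.0 on mm10. Cells with under 1000 genes or over 10.0% mitochondrial UMIs were left out (4, 2, 3 and 28), then the cells with the highest Scrublet doublet scores (scanpy 1.11.5), at a rate of 0.8% per 1000 cells (459, 70, 131 and 517). Retained libraries held 70599266 to 151615964 UMIs. A marker was raised in a cell from 0.5 UMIs per 10000 and 3 times the library median; this threshold was set after the data were seen. The members, gene lists and markers were chosen with earlier results of these data known. Genes named were the 9 members, 24 other pathway genes and, for each member, those most like it. Counts summed per gate and library (at least 20 cells) were tested in edgeR 4.0.16 (R 4.3.3) with TMM and filterByExpr; DESeq2 1.42.0 was an alternative. The term for early and late libraries was added after the data were seen. Intervals are exact 95% Poisson, or exact conditional for ratios (scipy 1.17.1). In counts simulated for pSHF against aSHF (10838 genes), 93% of 4-fold and 58% of 2-fold changes were called, and 4.43% of calls were unchanged genes. Alternatives are described in the closing section. No protein sequences or authors' cell annotations were used here. One gene of the pathway list is counted but not reported here by name.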

Additional observations from a re-analysis of the deposited data

Results flagged for a closer look

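In 6 cases the difference of a member between gates changed from the early to the late libraries, by the edgeR term for stage with Benjamini-Hochberg adjustment over all genes. Each rests on 2 libraries per side, with the dissected region changed between them, and the term was chosen after the data were seen. Crabp1 changed by -3.47 ± 0.49 (SE, log2) between pSHF and aSHF (adjusted p 0.00752, edgeR). Between pSHF and CMs it changed by -1.86 ± 0.24 (adjusted p 0.0248, edgeR), from log2 ratios of 0.79 and 0.31 early to -0.86 and -1.59 late. Crabp2 changed by -1.74 ± 0.26 between pSHF and BrM (adjusted p 0.0403, edgeR), from 1.30 in both early libraries to -0.17 and -0.68. Cyp26b1 changed by -3.64 ± 0.61 between pSHF and endothelial cells (adjusted p 0.0164, edgeR), from 1.15 and -0.40 to -3.28 and -3.37. Aldh1a2 changed by 7.21 ± 0.63 between head and paraxial mesoderm (adjusted p 4.41e-05, edgeR), and Cyp26a1 there by -1.42 ± 0.33 (adjusted p 0.0401, edgeR), from 3.33 and 2.61 to 2.13 and 1.65. Without the E8.0 library, 4 of the 6 lost the call in edgeR, which were Crabp1 against CMs (-1.61, adjusted p 0.226), Crabp2 (-1.73, 0.210), Cyp26b1 (-2.94, 0.176) and Cyp26a1 (-0.96, 0.459). Without E8.25, Crabp1 against CMs (-2.06, adjusted p 0.0755) and Crabp2 (-1.75, 0.314) lost it in edgeR, and without E10.5 Cyp26a1 did (-0.99, 0.950). The late head and paraxial gates held 22 and 30 cells at E9.5 and 332 and 103 at E10.5. The paraxial gate held only 0.102% and 0.084% of the Aldh1a2 UMIs of these libraries, so its late level rests on few UMIs. Whether the late gates hold the same cell types as the early gates was not tested.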

How the results depend on the processing

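For pSHF against aSHF the count of members called was 1, became 2 with DESeq2 and 5 without a filter on low counts, and ran from 1 to 4 with a library left out. Against CMs it was 4 and became 1 without the library block, and 1 to 4 with a library left out. Against BrM it was 2 and became 5 without the filter. Against endothelial cells it was 8, and became 5 with gates drawn on thinned cells and 4 without the block. For head against paraxial mesoderm it was 2, and became 0 without the block, 7 without the filter and 1 to 6 with a library left out. Without the filter the prior degrees of freedom of edgeR rose to between 8.29 and infinity, so that a gene's own spread counted for less. The BrM comparison could not be run with gates on thinned cells, which left too few cells. Aldh1a2 in the pSHF gate was at 160.0 CPM at E8.0 and 131.0 at E9.5 with 1 more marker required, and at 130.3 and 131.8 with gates on thinned cells. Cyp26a1 in head mesoderm was at 82.4 CPM (E8.0), 36.7 (E8.25) and 71.9 (E10.5) on thinned cells, and at 38.9 at E8.25 with 1 more marker. The log2 odds ratio of Aldh1a2 with any Cyp26 gene was -0.68 at E8.0 without thinning, and -2.68 at E8.0 and -1.84 at E8.25 when 2 UMIs were required, which gave no finite value at E9.5 and E10.5. The late minus early change of Cyp26a1 between head and paraxial mesoderm was 2.46 with 1 more marker (adjusted p 0.716, edgeR), the only sign turned. On thinned cells it was -0.43 for Cyp26a1 (adjusted p 0.873, edgeR) and 4.40 for Aldh1a2 (adjusted p 0.171, edgeR), and with 1 more marker it was -1.47 for Crabp2 between pSHF and BrM (adjusted p 0.285, edgeR). The cause of these moves was not tested. The counts of members called by stage over all cells were the same in all 5 alternatives, but the single log2 differences between E10.5 and E8.0 moved past their counting interval in 20 of 45 cases, with no sign turned. Without the cells of the blood gate they were -1.04 for Aldh1a2 (-1.33 with them), 0.49 for Rara (0.20), -0.04 for Crabp1 (-0.32) and 3.36 for Crabp2 (3.07). Low counts limit Cyp26c1 in the late libraries and Cyp26b1 in the early ones.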
